A study of Mus musculus with 16 samples.

Results

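A set of 10 genes of the neuronal cytoskeleton was described in primary neuronal cultures (PNCs) after oxygen-glucose deprivation (OGD) with or without tianeptine (TIA). They were the neurofilament subunits *Nefl*, *Nefm* and *Nefh*, the related filament *Ina*, the tubulin *Tubb3*, the microtubule-associated *Map2*, *Mapt*, *Map1b* and *Dcx*, and the stathmin *Stmn2*. They were chosen by gene symbol, and are 10 of the 53679 symbols and 59 of the 135202 isoforms in the table analysed. The FPKM (fragments per kilobase of isoform, scaled to the size of the library) of the isoforms of a symbol were summed to give the level of the gene in each culture.

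PNCs came from the cortex of wild-type (wt) mice at embryonic day 15 (E15). On DIV (day in vitro) 8 the cultures received vehicle (VEH) or 10 μM TIA, an atypical antidepressant, and 24 h later, on DIV 9, they underwent 3-h OGD or sham treatment (CONTROL). RNA was taken 6 h after OGD. This gave 4 groups of 4 cultures, CONTROL-VEH (cultures 1 to 4), CONTROL-TIA (5 to 8), OGD-VEH (9 to 12) and OGD-TIA (13 to 16), and all groups shared genotype, cortical origin and time in culture. The labels name the vehicle groups untreated and give no strain, and a culture is a mixture of the cells that grow from embryonic cortex.

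Neurofilaments are the intermediate filaments of the axon. They are built from a light (*Nefl*), a medium (*Nefm*) and a heavy (*Nefh*) chain together with α-internexin (*Ina*), which appears earlier in development than the other chains. Microtubules are polymers of α- and β-tubulin. MAP2 binds them mainly in dendrites, tau (*Mapt*) mainly in axons, MAP1B in growing axons and doublecortin (*Dcx*) in migrating and young neurons, whereas stathmins bind free tubulin dimers and favour microtubule disassembly. MAP2 and class III β-tubulin (*Tubb3*) are in wide use as markers of neurons.

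The library size of each culture, estimated from the FPKM value of 1 read, lay between about 19800000 and 25300000 reads. The FPKM values had been scaled between libraries, so this size need not equal the number of reads aligned. Every one of the 10 genes passed the filter of a mean of at least 0.5 FPKM in each comparison. The estimated number of reads behind a value was lowest for *Nefh*, with 33 reads in OGD-VEH culture 12. For the other 9 genes the lowest estimate was 515 reads. OGD-VEH culture 12 and OGD-TIA culture 16 stood apart from the others of their groups. Culture 12 had a summed level of 865 FPKM over 12 neuron markers, against 1396 to 2091 in the other OGD-VEH cultures, and culture 16 had 1200.2 FPKM, against 1917 to 2275. The same cultures had the highest sums over 8 astrocyte markers, 1736 and 1268 FPKM. The last-numbered culture of each group (4, 8, 12 and 16) had the highest astrocyte sum and the lowest *Nefl*, *Nefm*, *Nefh* and *Ina* of its group, and the labels do not say whether cultures in the same place of their groups shared a preparation. In such bulk samples, fewer neurons and less RNA per neuron cannot be told apart. Results are given with and without these cultures where they turn on them.

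**Figure D1:**
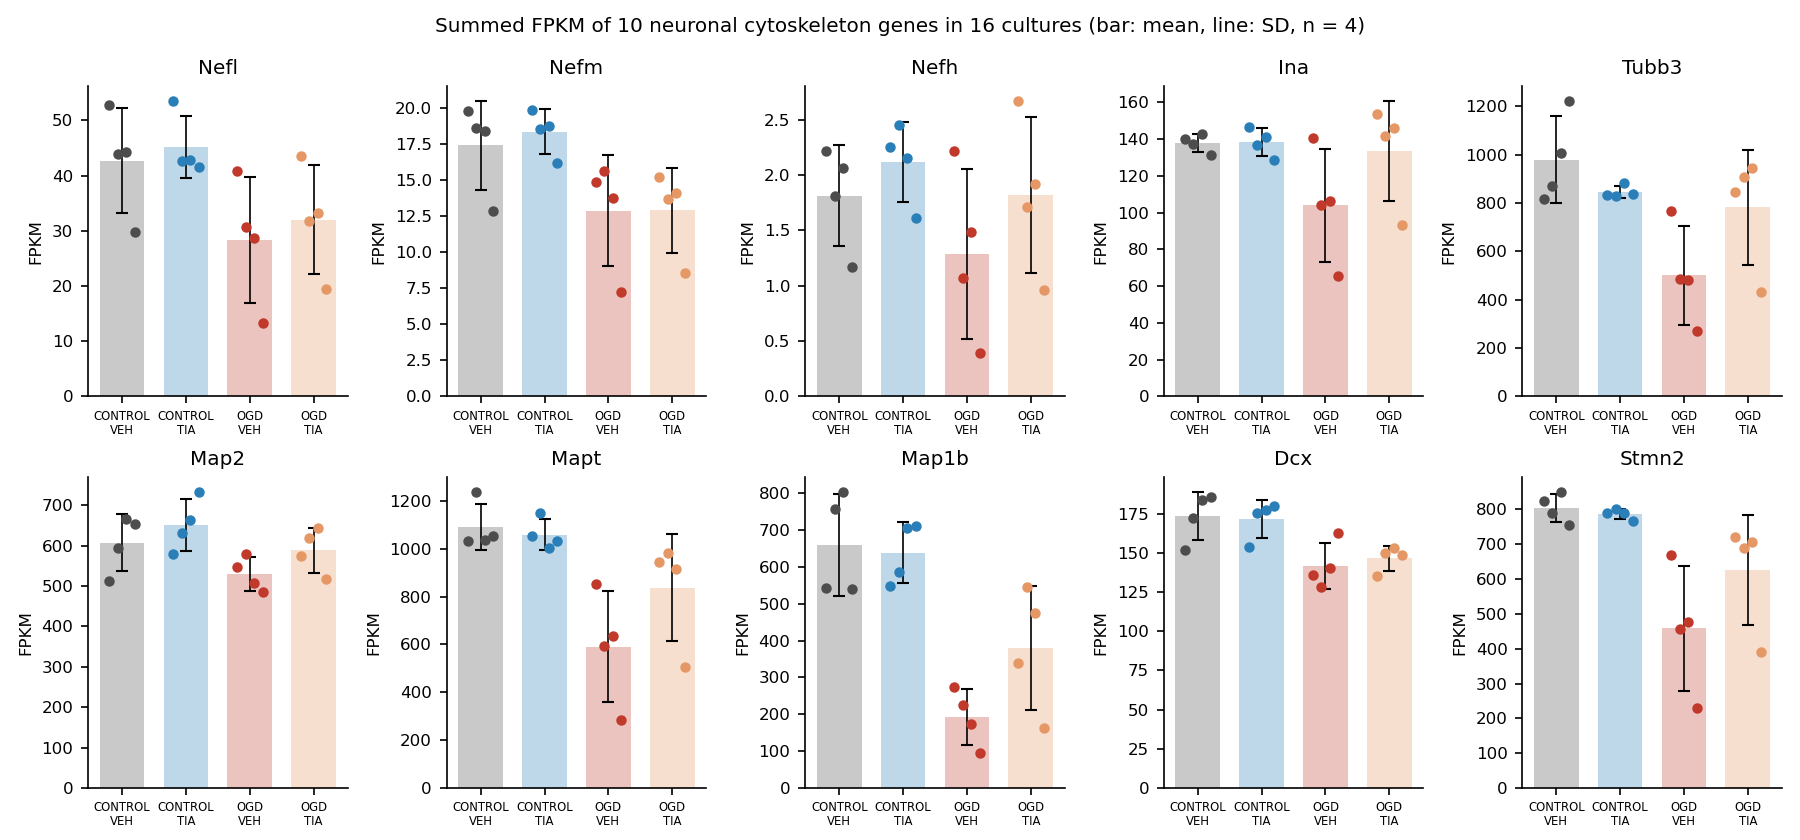
Level of each gene in each culture. The vertical axes give summed isoform FPKM from 0, points are the 4 cultures of a group in the order of their numbers, bars are means and lines the SD. In OGD-VEH, *Map1b* lay between 95.4 and 275 FPKM, under the lowest CONTROL-VEH value of 541 FPKM, whereas the *Ina*, *Nefh*, *Nefl*, *Nefm*, *Map2* and *Dcx* values of OGD-VEH and CONTROL-VEH overlapped.

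The mean level of each of the 10 genes was lower in OGD-VEH than in CONTROL-VEH, but *Map1b* alone met both thresholds, an adjusted p (padj) no higher than 0.05 together with a change of at least 1 on the log2 scale in either direction. This rule called 4.09% of the 16346 genes tested, 1.68% downward and 2.40% upward. By padj alone, whatever the fold change, 1 of the 10 genes was called, against 8.44% of all genes, 3.45% downward and 4.99% upward (4.06% and 3.90% after median-ratio scaling). At an unadjusted p under 0.05 the 5 genes *Mapt*, *Map1b*, *Tubb3*, *Dcx* and *Stmn2* were counted, all lower, against 35.0% of all genes and 14.9% downward. The 10 genes had a median log2 fold change of -0.65, and all genes 0.10. In 4 of the 10 genes (*Mapt*, *Map1b*, *Tubb3* and *Stmn2*) all OGD-VEH cultures lay below all CONTROL-VEH cultures, a separation found in 9.95% of all genes tested. All tests of these differences used limma on log2(FPKM + 0.1), with p adjusted over all genes tested. An exact permutation test of 4 against 4 cultures has 70 assignments and cannot go below p = 0.0286.

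**Figure D2:**
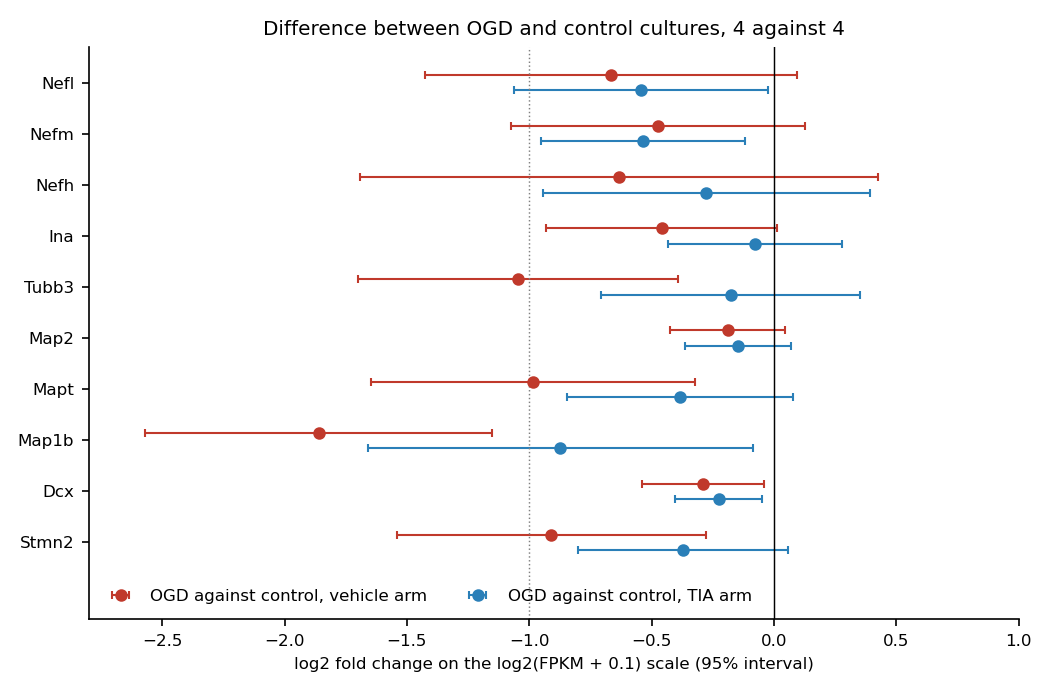
Difference between OGD and CONTROL for each gene. The horizontal axis gives the log2 fold change on the log2(FPKM + 0.1) scale with its 95% confidence interval, in red for the vehicle arm and in blue for the TIA arm, 4 cultures against 4, with a dotted line at -1. All 20 estimates are negative, and the largest is that of *Map1b* with vehicle, -1.86.

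Among the intermediate filaments, *Nefl* (chromosome 14, 68083863 to 68089095, plus strand, GRCm38) was the most abundant neurofilament chain. Its FPKM was 52.7, 43.8, 44.3 and 29.8 in CONTROL-VEH cultures 1 to 4, and 53.5, 42.6, 42.8 and 41.5 in CONTROL-TIA cultures 5 to 8. After OGD it was 40.8, 30.6, 28.6 and 13.3 in OGD-VEH cultures 9 to 12, and 43.5, 31.8, 33.1 and 19.5 in OGD-TIA cultures 13 to 16. Culture 12 was the lowest and culture 4 was the lowest of the controls, and in both arms the groups overlapped. Culture 4 also had the highest astrocyte marker sum of the controls (804 FPKM), and the part of this in its values was not tested. On the log2 scale the difference was -0.67 (SE 0.33, padj = 0.186) with vehicle and -0.54 (SE 0.23, padj = 0.242) with TIA, so the difference did not pass the test in either arm.

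*Nefm*, the medium chain, lies beside *Nefl* on chromosome 14 (68082590 to 68124846, minus strand). The annotated ends of *Nefl* and *Nefm* overlap on opposite strands. The library kit marks strand, but whether the quantification used it is not given in the sources used here. *Nefm* FPKM was 19.8, 18.6, 18.4 and 12.9 in CONTROL-VEH and 14.9, 15.6, 13.8 and 7.24 in OGD-VEH, where the groups overlapped through culture 4. It was 19.9, 18.6, 18.8 and 16.2 in CONTROL-TIA and 15.2, 13.7, 14.1 and 8.56 in OGD-TIA, where all OGD cultures lay below all controls. The log2 fold changes were -0.47 (SE 0.26, padj = 0.229) with vehicle and -0.53 (SE 0.18, padj = 0.189) with TIA. The exact permutation p with TIA was 0.0286, the smallest it can give.

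*Nefh*, the heavy chain that is expressed late in neuronal maturation, had the lowest level of the set (chromosome 11, 4938754 to 4948064, minus strand). Its mean was 1.82 ± 0.461 FPKM (SD, n = 4) in CONTROL-VEH, 2.12 ± 0.359 in CONTROL-TIA, 1.29 ± 0.767 in OGD-VEH and 1.82 ± 0.704 in OGD-TIA. Single cultures ran from 0.390 FPKM in culture 12 to 2.67 FPKM in culture 13, and the groups overlapped in both arms. The log2 fold change with vehicle was -0.63 with an SE of 0.47, and its 95% interval of -1.69 to 0.43 holds both a loss and a gain.

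*Ina* (chromosome 19, 47014698 to 47025327, plus strand) was the most abundant of the 4 filament genes and the most uniform in the controls. It lay at 140.3, 138, 143 and 132 FPKM in CONTROL-VEH and at 147, 137, 141 and 129 FPKM in CONTROL-TIA. After OGD it was 141, 104, 106 and 65.3 FPKM with vehicle, and 154, 141, 146 and 93.3 FPKM with TIA. OGD-VEH culture 9 was as high as the controls, and of the OGD-TIA cultures only culture 16 lay below the controls of that arm. OGD differed from CONTROL by a log2 fold change of -0.46 (SE 0.21, padj = 0.151) with vehicle and -0.08 (SE 0.16, padj = 0.810) with TIA, and the latter was 0.09 without OGD-TIA culture 16. The filament chains therefore kept an order of *Ina*, *Nefl*, *Nefm* and *Nefh* by FPKM in each of the 16 cultures.

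The ratio of *Ina* to *Nefl* was 3.36 ± 0.744 (SD, n = 4) in CONTROL-VEH, 3.09 ± 0.246 in CONTROL-TIA, 3.87 ± 0.703 in OGD-VEH and 4.29 ± 0.534 in OGD-TIA. With TIA, the OGD cultures (3.53 to 4.78) all lay above the controls (2.74 to 3.29), and with vehicle the ranges overlapped. The ratio of *Nefl* to *Nefm* was 2.44 ± 0.154, 2.46 ± 0.204, 2.15 ± 0.402 and 2.45 ± 0.274 in the same order of groups, with overlap in both arms. These ratios were formed after the values were seen and were not tested.

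*Tubb3*, the neuronal β-tubulin (chromosome 8, 123411424 to 123422015, plus strand), was measured at 815, 871, 1008 and 1222 FPKM in CONTROL-VEH. In OGD-VEH it was 767, 486, 480.4 and 269 FPKM. All OGD-VEH values were lower than all CONTROL-VEH values, with culture 9 only just below culture 1 and culture 12 lowest (exact permutation p = 0.0286). Its log2 fold change was -1.05 (SE 0.29), and padj was 0.0535, just over the threshold.

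With TIA, *Tubb3* was 834, 827, 884 and 839 FPKM in CONTROL-TIA and 844, 909, 946 and 432 FPKM in OGD-TIA. Culture 16 was the low one, and the other OGD-TIA cultures were within or above the control range. The log2 fold change was -0.18 (SE 0.23, padj = 0.691) over the 8 cultures and 0.09 without culture 16. The difference between the arms, tested as an interaction over the 16 cultures, was 0.87 (SE 0.40, unadjusted p = 0.0445 by limma, padj = 0.722), the smallest unadjusted p among the 10 genes. After adjustment over 16313 genes it did not pass. With array weights its padj was 0.0499, in a fit where 1.33% of all genes had a padj of at most 0.05.

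*Map2*, the dendritic microtubule-associated protein (chromosome 1, 66175273 to 66442583, plus strand), had the smallest difference of the 10 genes with vehicle. Its summed level was 512, 594, 667 and 655 FPKM in CONTROL-VEH and 548, 580.3, 508 and 486 FPKM in OGD-VEH. The groups overlapped, and culture 12 was not set apart here as it was for *Tubb3*. The log2 fold change was -0.19 (SE 0.10, padj = 0.223). With TIA it was -0.15 (SE 0.09, padj = 0.415), from 578, 632, 663 and 732 FPKM to 574, 619, 643 and 518 FPKM.

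*Mapt* encodes tau (chromosome 11, 104231390 to 104332090, plus strand). It was at 1034, 1237, 1039 and 1055 FPKM in CONTROL-VEH and at 854, 594, 634 and 285 FPKM in OGD-VEH. The groups did not overlap (exact permutation p = 0.0286), and culture 12 was the lowest. For tau the log2 fold change was -0.98 (SE 0.29, padj = 0.0611). With TIA, 1053, 1151, 1002 and 1034 FPKM in CONTROL-TIA stood against 946, 983, 917 and 506 FPKM in OGD-TIA, again without overlap, and the log2 fold change was -0.39 (SE 0.20, padj = 0.323).

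*Map1b* (chromosome 13, 99421446 to 99516540, minus strand), the MAP of growing axons, alone of the 10 genes met both thresholds with vehicle. Its summed level was 542, 757, 803 and 541 FPKM in CONTROL-VEH and 275, 224, 174 and 95.4 FPKM in OGD-VEH. The highest OGD-VEH value lay under the lowest CONTROL-VEH value (exact permutation p = 0.0286), and the log2 fold change was -1.86 (SE 0.31, 95% interval -2.57 to -1.15, padj = 0.0336), so that *Map1b* fell by 72.5%. The call was kept without culture 9 or culture 12 (padj = 0.0407 without 12). It was lost without any 1 of the other 6 cultures, 4 controls and OGD-VEH cultures 10 and 11, with padj of *Map1b* up to 0.0999. In the fits that lost it, 0.00610% to 0.110% of all genes had a padj of at most 0.05, against 8.44% in the main fit. The share was 30.5% without culture 9 and 0.650% without culture 12. Over these 8 fits the log2 fold change of *Map1b* stayed between -2.07 and -1.56.

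With TIA, *Map1b* was 549, 587, 707 and 712 FPKM in CONTROL-TIA and 339, 546, 476 and 164 FPKM in OGD-TIA. The groups again did not overlap, and the log2 fold change was -0.87 (SE 0.34, padj = 0.223). The size of the *Map1b* difference rests on how the isoforms are summed, because a transcript of 366 bases holds much of the sum. With each isoform weighted by its length, which makes the sum proportional to reads, the log2 fold change of *Map1b* with vehicle was -1.01 (SE 0.27, padj = 0.0357). With protein-coding isoforms only it was -0.97 (padj = 0.0487), short of the fold threshold.

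*Dcx* (chromosome X, 143855842 to 143933311, minus strand), the marker of migrating and young neurons, kept a narrow range. It was at 152, 172, 184 and 185 FPKM in CONTROL-VEH and at 136, 128, 140.2 and 163 FPKM in OGD-VEH. Here culture 12, the lowest of the OGD-VEH cultures for the other 9 genes, was the highest. The log2 fold change was -0.29 (SE 0.11, padj = 0.101). With TIA the values were 154, 176, 178 and 179.7 FPKM in CONTROL-TIA and 135, 150.2, 153 and 148 FPKM in OGD-TIA, without overlap, and the log2 fold change was -0.23 (SE 0.08, padj = 0.192).

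*Stmn2* (chromosome 3, 8509360 to 8561606, plus strand), the neuronal stathmin of growth cones, had controls that lay close together. It lay at 825, 789.6, 849 and 757 FPKM in CONTROL-VEH and at 670.3, 457, 476 and 231 FPKM in OGD-VEH, without overlap (exact permutation p = 0.0286). The log2 fold change was -0.91 (SE 0.28, padj = 0.0650). With TIA it was at 791, 800.3, 791 and 767 FPKM in CONTROL-TIA and at 722, 688, 707 and 390.3 FPKM in OGD-TIA, also without overlap, and the log2 fold change was -0.37 (SE 0.19, padj = 0.308).

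The OGD comparison in the TIA arm gave no call among the 16242 genes tested by limma (0% called), and none of the 10 genes was called. The study, which used DESeq2 at the same thresholds, did report called genes in this comparison. At an unadjusted p under 0.05, 19.5% of all genes (7.92% lower) and 4 of the 10 genes (*Nefl*, *Nefm*, *Map1b* and *Dcx*) were counted, all 4 lower in OGD-TIA. All 10 log2 fold changes were negative, from -0.87 for *Map1b* to -0.08 for *Ina*, with a median of -0.32 against 0.04 over all genes. In 5 of the 10 genes (*Nefm*, *Mapt*, *Map1b*, *Dcx* and *Stmn2*) all OGD-TIA cultures lay below all CONTROL-TIA cultures, as did those of 6.72% of all genes tested. After median-ratio scaling in place of TMM this count was 3, and the share of all genes on that scaling was not counted.

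TIA without OGD left the 10 genes within the spread between cultures. In CONTROL-TIA against CONTROL-VEH 0% of 16170 genes were called by limma, 3.84% had an unadjusted p under 0.05, and none of the 10 genes did. The log2 fold changes ran from -0.19 (*Tubb3*) to 0.23 (*Nefh*), 5 negative and 5 positive. For *Stmn2*, the most precise, the 95% interval was -0.14 to 0.08, and for *Nefh*, the least precise, it was -0.28 to 0.75.

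Between the OGD groups, the mean of each of the 10 genes was higher in OGD-TIA than in OGD-VEH, with log2 differences of 0.03 (*Nefm*) to 0.95 (*Map1b*, SE 0.44, 95% interval -0.05 to 1.96). None passed the test. Without OGD-VEH culture 12 the difference was -0.10 for *Nefl* and -0.22 for *Nefm*, and that of *Nefm* was also negative without any 1 of OGD-TIA cultures 13, 14 and 15 and without cultures 12 and 16 together. With array weights, which count cultures that stand apart for less, *Map1b* (padj = 0.0478) and *Tubb3* (padj = 0.0469) were at padj of at most 0.05. So were 9.42% of all genes in that fit, against 0% in the main fit. By limma 0% of 16351 genes were called. An unadjusted p under 0.05 was found for 7.91% of them and for none of the 10 genes. In every one of the 10 genes the ranges of the OGD groups overlapped, and 1.30% of all genes had every OGD-TIA culture above every OGD-VEH culture. The interaction of OGD and TIA was called for 0% of 16313 genes, with 6.06% at an unadjusted p under 0.05, *Tubb3* among the 10. For *Map1b* the interaction was 0.99 (SE 0.50, padj = 0.722). The comparisons within the vehicle arm and between the OGD groups share the OGD-VEH cultures, and their values are therefore not independent.

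Over both drug arms together (8 OGD against 8 CONTROL cultures, with TIA as an additive term), 4.78% of 16313 genes were called, 1.99% downward and 2.80% upward, and *Map1b* was again the 1 of the 10 genes that met both thresholds (log2 fold change -1.37, SE 0.27, padj = 0.00346). By padj alone, 7 of the 10 genes fell, against 32.1% of all genes called and 13.4% called downward. These 7 were *Nefl* (-0.61), *Nefm* (-0.50), *Mapt* (-0.68), *Map1b*, *Tubb3* (-0.61), *Dcx* (-0.26) and *Stmn2* (-0.64). *Nefh* (-0.45), *Ina* (-0.27) and *Map2* (-0.17) did not pass. *Map1b* did not meet the fold threshold with isoforms weighted by length (-0.72, padj = 0.00791). The count of 7 was 5 without OGD-VEH culture 12 and OGD-TIA culture 16 (20.7% of all genes), when *Nefl* (padj = 0.0844) and *Tubb3* (padj = 0.139) no longer passed. It was 4 without OGD-TIA culture 16 alone (24.7% of all genes) and 4 without CONTROL-VEH culture 2 (25.3%).

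**Figure D3:**
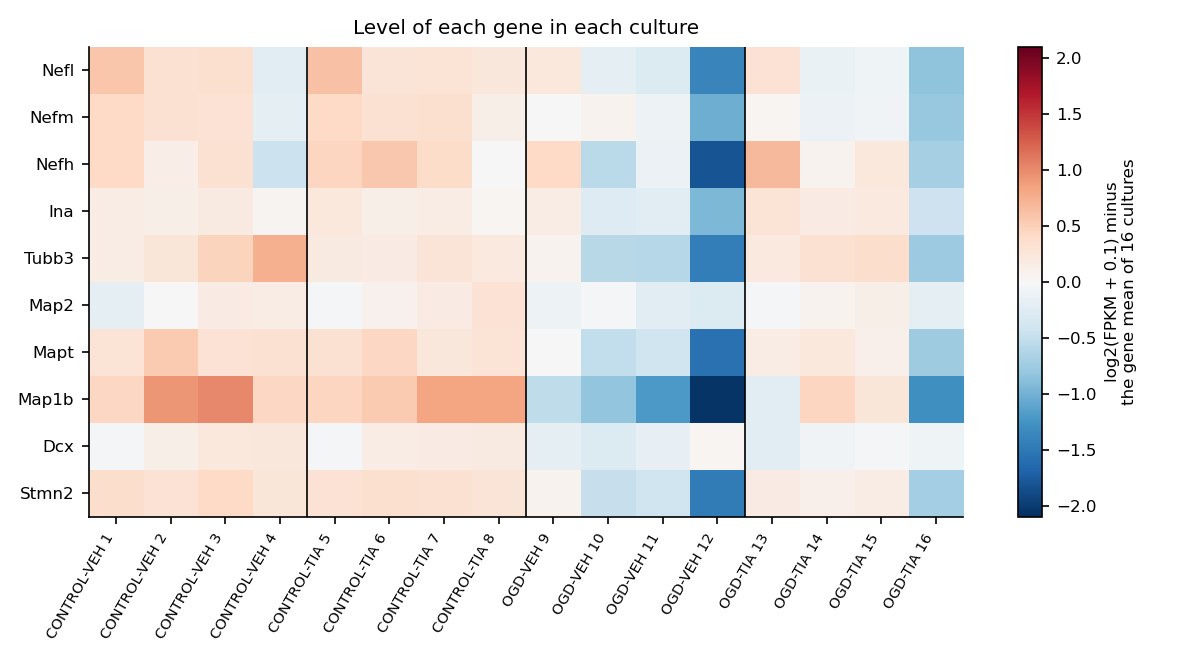
Levels of the 10 genes across the cultures. Each cell gives log2(FPKM + 0.1) minus the mean of the gene over the 16 cultures, blue for lower and red for higher, with black lines between groups. OGD-VEH culture 12 is the darkest column, with 9 of the 10 genes below every control culture, and *Dcx* is the exception in it. The share of all genes below every control in this culture was not counted.

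The cultures of a group differed in how far the genes moved together. The mean over the 10 genes of the log2 difference from the control mean was -0.27, -0.65, -0.66 and -1.47 in OGD-VEH cultures 9 to 12. It was -0.14, -0.17, -0.15 and -0.93 in OGD-TIA cultures 13 to 16, and between -0.15 and 0.09 in the 8 controls. In OGD-VEH 5, 7, 8 and 9 of the 10 genes were below all 8 controls, and in OGD-TIA 4, 3, 3 and 9. How many of all genes lay below all controls in each culture was not counted, so these counts cannot be read as particular to the 10 genes. Culture 12 and culture 16 thus had the lowest means of their groups, and the other OGD-TIA cultures lay nearer to the controls than OGD-VEH cultures 9 to 11.

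As a description over the 16 cultures, which share the 4 conditions, the levels of *Mapt* and *Stmn2* ran most closely together (Pearson's r = 0.987). The lowest r among the 45 pairs was that of *Nefh* and *Dcx* (0.0068), followed by *Nefl* and *Dcx* (0.121) and *Ina* and *Dcx* (0.129). With the group means removed, *Dcx* ran opposite to *Nefl* (r = -0.739). For *Tubb3* and *Dcx* r was 0.406 over the 16 cultures and -0.203 with the group means removed. Their ratio was between 5.06 and 6.59 in CONTROL-VEH, and 5.64, 3.79, 3.43 and 1.65 in OGD-VEH cultures 9 to 12. In OGD-TIA it was 6.24, 6.05, 6.19 and 2.91, against 4.67 to 5.42 in CONTROL-TIA. These pairs were picked after the values were seen.

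Among the genes with the pattern most like the mean of the 10 genes, of 16303 other genes compared over the 16 cultures, were *Ccdc184*, *Gprin1*, *Dact2* and *Map6* (Pearson's r from 0.991 to 0.993). *Gprin1*, an inducer of neurite outgrowth, had a mean of 115 ± 6.81 FPKM (SD, n = 4) in CONTROL-VEH and 71.6 ± 26.0 in OGD-VEH. *Map6*, a microtubule-stabilising protein, had 150.5 ± 8.56 and 89.5 ± 34.9.

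Since FPKM is a level per length, the genes can be ordered by their full-length isoforms. In CONTROL-VEH the order was *Stmn2* (794 ± 38.7 FPKM, SD, n = 4), *Tubb3* (659 ± 134), *Mapt* (435 ± 13.03), *Map2* (349 ± 28.0 over its high- and low-molecular-weight isoforms), *Map1b* (325 ± 35.1), *Dcx* (159.5 ± 14.4), *Ina* (138 ± 4.89), *Nefl* (42.7 ± 9.48), *Nefm* (16.9 ± 3.27) and *Nefh* (1.82 ± 0.461). The ranges over the 4 cultures overlapped between *Stmn2* and *Tubb3*, between *Map2* and *Map1b*, and between *Dcx* and *Ina*. The other neighbours in the order did not overlap.

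The isoforms of *Map2* differed from each other more than the summed level of the gene did between groups. High-molecular-weight MAP2 carries a large exon (3741 bases) and is a protein of mature dendrites, and low-molecular-weight MAP2 lacks it. The high-molecular-weight isoform Map2-204 (6258 bases, 1828 residues) was at 83.8, 98.2, 90.0 and 107 FPKM in CONTROL-VEH and at 74.8, 51.2, 51.4 and 33.6 FPKM in OGD-VEH, without overlap. Its log2 fold change was -0.90 (SE 0.23, exact permutation p = 0.0286, padj = 0.140 over 53087 isoforms by limma), so it did not pass over all isoforms. In the TIA arm it was at 80.9, 90.4, 92.8 and 101 FPKM in CONTROL-TIA and at 79.0, 77.8, 80.0 and 52.7 FPKM in OGD-TIA, also without overlap (log2 fold change -0.35, SE 0.15, padj = 0.477).

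The 6 low-molecular-weight isoforms, summed, did not share this difference. They were at 244, 242, 249 and 283 FPKM in CONTROL-VEH and at 252, 259, 268 and 263 FPKM in OGD-VEH. In CONTROL-TIA they were at 245, 251, 254 and 261 FPKM, and in OGD-TIA at 250.1, 263, 267 and 247 FPKM. The ratio of high- to low-molecular-weight *Map2* was 0.372 ± 0.0261 (SD, n = 4) in CONTROL-VEH, 0.360 ± 0.0225 in CONTROL-TIA, 0.203 ± 0.0696 in OGD-VEH and 0.281 ± 0.0461 in OGD-TIA. The highest ratio in any OGD culture (0.316) was under the lowest in any control (0.331). The ratio was chosen after the values were seen and was not tested, and the isoforms were told apart by the probabilistic assignment of 50-base reads. Map2-204 has a shorter last exon than the low-molecular-weight isoforms, so reads from the far 3′ end of the gene cannot be assigned to it.

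Low-molecular-weight *Map2* exists with and without an exon of 93 bases that encodes an additional microtubule-binding repeat. The exon lies at chr1:66431527-66431619 (GRCm38, plus strand) and is exon 10 of isoform Map2-207. It is shown here because reads over it and its borders are what separate these isoforms, in capitals with 20 bases of each neighbouring exon in lower case, 5′ to 3′, from the GENCODE transcript.

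Map2 exon: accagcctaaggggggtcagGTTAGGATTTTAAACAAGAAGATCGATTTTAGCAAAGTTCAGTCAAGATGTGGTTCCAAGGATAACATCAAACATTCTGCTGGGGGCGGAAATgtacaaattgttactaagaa

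Map2-207, which holds this exon, was at 26.1, 21.1, 28.1 and 32.2 FPKM in CONTROL-VEH and at 28.6, 42.0, 40.6 and 71.3 FPKM in OGD-VEH. Its mean was higher in OGD-VEH, but the groups overlapped through cultures 4 and 9 (log2 fold change 0.70, SE 0.27, padj = 0.226, exact permutation p = 0.0571). With TIA it was at 15.0, 22.4, 21.9 and 32.2 FPKM in CONTROL-TIA and at 27.5, 23.8, 18.4 and 42.3 FPKM in OGD-TIA. The ratio of low-molecular-weight *Map2* with this exon to that without it was 0.118 ± 0.0153 (SD, n = 4) in CONTROL-VEH, 0.0997 ± 0.0311 in CONTROL-TIA, 0.220 ± 0.108 in OGD-VEH and 0.127 ± 0.0577 in OGD-TIA. The highest value was 0.375 in culture 12, and the ratio was not tested.

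**Figure D4:**
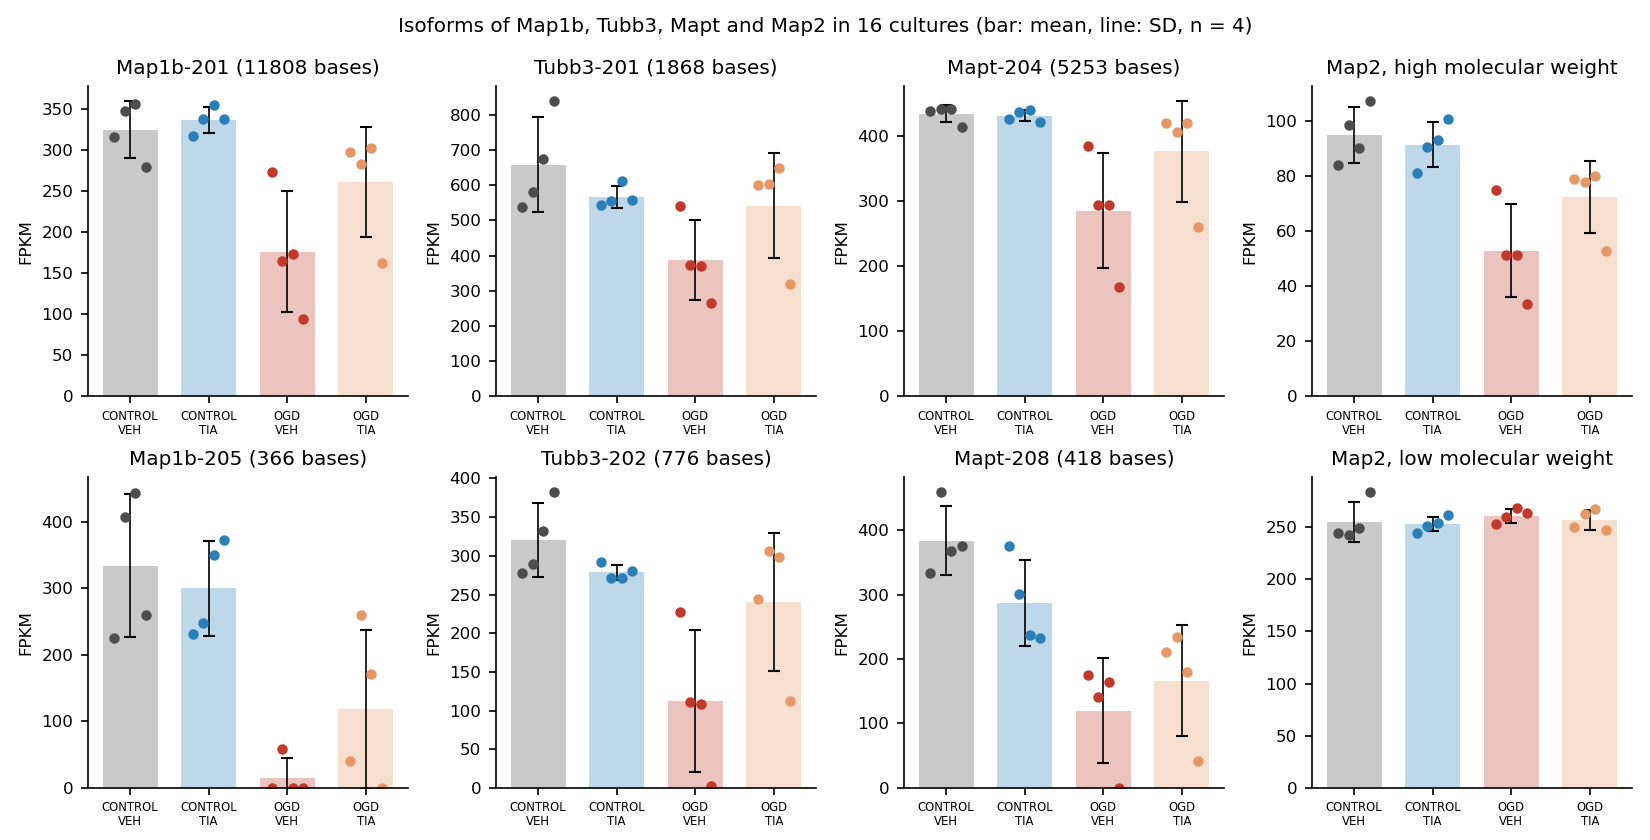
Isoforms in each culture. The vertical axes give FPKM from 0, points are cultures, bars are means and lines the SD (n = 4); the upper panels show the long isoforms of *Map1b*, *Tubb3* and *Mapt* and high-molecular-weight *Map2*, the lower panels a short isoform of each gene and low-molecular-weight *Map2*. Map1b-205 is at or near 0 in 3 of the 4 OGD-VEH cultures, and low-molecular-weight *Map2* stays between 242 and 283 FPKM in all 16 cultures.

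In *Map1b*, the coding isoform Map1b-201 (11808 bases, 2464 residues) was at 316, 348, 356 and 279 FPKM in CONTROL-VEH and at 273, 164, 173 and 94.2 FPKM in OGD-VEH, with culture 9 just under culture 4. Its log2 fold change was -0.97 (SE 0.29, exact permutation p = 0.0286, padj = 0.159). The short transcript Map1b-205 (366 bases, not coding) was at 225, 407, 444 and 260.4 FPKM in CONTROL-VEH and at 0.177, 59.1, 0 and 0.00100 FPKM in OGD-VEH. It made up 50.5% of the summed *Map1b* FPKM in CONTROL-VEH but 2.70% of its estimated reads, and 56.8% of its bases lie in exons of Map1b-201. A listed 0 can be a failed estimate, so no fold is given for Map1b-205.

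In *Tubb3*, the full-length isoform Tubb3-201 (1868 bases, 450 residues) had a mean of 659 ± 134 FPKM (SD, n = 4) in CONTROL-VEH and 388 ± 113 in OGD-VEH, with overlap of cultures 1 and 9 (log2 fold change -0.79, SE 0.23, padj = 0.153). Tubb3-202 (776 bases) had 320.2 ± 47.5 and 112 ± 91.7 FPKM, and all of its bases lie in the exons of Tubb3-201. In *Mapt*, Mapt-204 (5253 bases, 372 residues) had 435 ± 13.03 and 286 ± 89.0 FPKM, without overlap (log2 fold change -0.66, SE 0.23, exact permutation p = 0.0286, padj = 0.187). Mapt-208 (418 bases) had 383 ± 53.1 and 120.0 ± 81.2 FPKM. *Stmn2* is carried almost wholly by Stmn2-201 (98.6% of its FPKM in CONTROL-VEH). Of all 53087 isoforms tested with vehicle, 75 were called and none belonged to the 10 genes.

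With every isoform weighted by its length, 4 of the 10 genes had a padj of at most 0.05 with vehicle, against 25.2% of all genes (9.71% downward) in the same fit. These were *Mapt* (-0.71, padj = 0.0484), *Map1b* (-1.01, padj = 0.0357), *Tubb3* (-0.91, padj = 0.0349) and *Stmn2* (-0.91, padj = 0.0430). On this scale *Map1b* was close to *Tubb3* and *Stmn2*. Both thresholds together called 1072 genes in the same fit, *Map1b* among the 10. With protein-coding isoforms alone, where 807 of 12938 genes met both thresholds, *Mapt* (-1.13, padj = 0.0493) and *Tubb3* (-1.05, padj = 0.0452) did so and *Map1b* did not. This sum still counts short coding isoforms. Mapt-208 (418 bases) held 35.1% of the *Mapt* FPKM over all isoforms in CONTROL-VEH but 5.58% of its estimated reads.

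RefSeq promoter sequences (GRCm38.p6) were at hand for 5 of the 10 genes, *Map2*, *Tubb3*, *Map1b*, *Ina* and *Dcx*. *Map1b* is shown for the largest difference in summed FPKM with vehicle, *Ina* as a filament gene that overlapped its controls, and *Dcx* for its narrow range. The sequences run 5′ to 3′ on the strand of the gene and end at the RefSeq start or, for *Dcx*, at the more upstream GENCODE start. Capitals mark TATAAA (or TTTATA on the other strand) and GGGCGG (or CCGCCC), which do not overlap here.

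Map1b, chr13:99516603-99516852, minus strand: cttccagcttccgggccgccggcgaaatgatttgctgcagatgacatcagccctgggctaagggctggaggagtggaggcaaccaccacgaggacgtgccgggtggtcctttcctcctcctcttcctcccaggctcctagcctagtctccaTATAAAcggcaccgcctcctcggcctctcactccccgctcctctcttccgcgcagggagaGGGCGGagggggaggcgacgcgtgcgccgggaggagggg
Ina, chr19:47014431-47014680, plus strand: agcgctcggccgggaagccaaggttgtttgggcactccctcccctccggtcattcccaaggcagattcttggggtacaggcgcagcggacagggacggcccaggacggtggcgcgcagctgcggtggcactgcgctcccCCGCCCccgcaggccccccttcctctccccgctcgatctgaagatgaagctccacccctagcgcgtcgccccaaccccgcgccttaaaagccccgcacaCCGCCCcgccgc
Dcx, chrX:143933312-143933469, minus strand: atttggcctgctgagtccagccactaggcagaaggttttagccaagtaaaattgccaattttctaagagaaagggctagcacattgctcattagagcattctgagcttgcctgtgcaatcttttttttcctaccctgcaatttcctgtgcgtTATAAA

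Within the 250 bases before the RefSeq start, GGGCGG on either strand was found 5 times in *Map2*, 2 times in *Tubb3*, 2 times in *Ina*, 1 time in *Map1b* and 0 times in *Dcx*. Of 32851 promoter windows of this length, 32.7% hold it. TATAAA was found in *Map1b* and *Dcx*, and 12.4% of all windows hold it. TGACGTCA, the cyclic AMP response element, was found in none of the 5 genes and in 1.55% of windows. The GC content was 81.2% in *Map2*, 70.8% in *Ina*, 68.0% in *Tubb3*, 66.4% in *Map1b* and 41.6% in *Dcx* (at the more upstream of its 2 RefSeq starts), with a median of 52.4% over all windows. A match of letters is a description of the window and not a binding site.

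The rest of the cytoskeleton was read from 8 lists of 138 genes, of which 134 were tested with vehicle. Of these 134, 17 fell (12.7%) and 6 rose (4.48%) at padj of at most 0.05, against 3.45% and 4.99% of all genes. Their median on the log2 scale was -0.37, against 0.10 over the whole table. These counts turn on single cultures. In limma fits that left out 1 culture, 63 genes of the lists fell without OGD-VEH culture 9, where 12.6% of all genes fell, 1 fell without culture 12, where 0.313% of all genes fell, and 0 fell without any 1 of CONTROL-VEH cultures 1 to 4 or OGD-VEH cultures 10 and 11. With TIA 0 of 135 genes passed by limma, and the median was -0.11 against 0.04. At an unadjusted p under 0.05 by limma, 19 were lower and 8 higher. Of all genes, 19.5% had such a p, and 7.92% had it and were lower. Over both arms 58 fell (43.0%) and 13 rose (9.63%), against 13.4% and 18.7% of all genes.

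**Figure D5:**
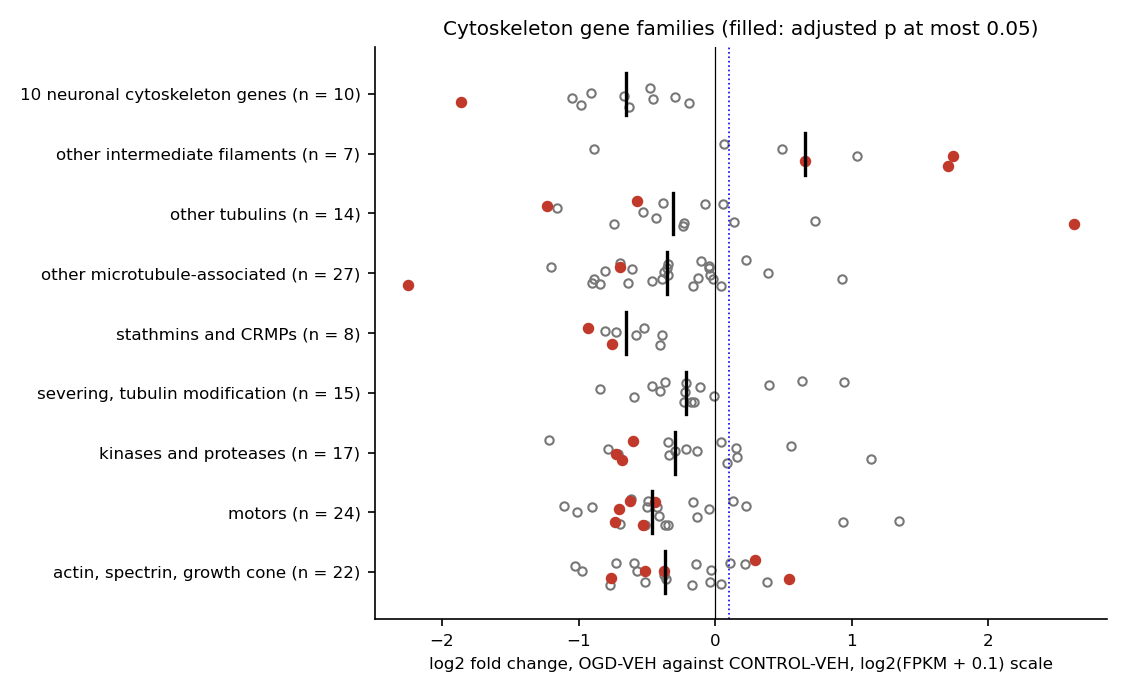
Log2 fold change of cytoskeleton genes in OGD-VEH against CONTROL-VEH by list. Each circle is a gene, filled where padj was at most 0.05, vertical bars are list medians, and the dotted line is the median of all 16346 genes (0.10). The list of other intermediate filaments is the one with a median above that line (0.66).

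Of the other intermediate filaments, 3 of 7 rose and none fell. *Vim* (vimentin, of glia and precursors) was at 454 ± 73.2 FPKM (SD, n = 4) in CONTROL-VEH and 1643 ± 749 in OGD-VEH (log2 fold change 1.74, SE 0.32, padj = 0.0339). *Nes* (nestin, of neural precursors) was at 20.1 ± 5.69 and 70.2 ± 33.7 FPKM (1.71, padj = 0.0427), and *Lmnb1* (a nuclear lamin) at 70.2 ± 6.46 and 112.5 ± 23.6 FPKM (0.66, padj = 0.0492). *Gfap*, *Lmna*, *Lmnb2* and *Prph* did not pass.

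Among the other tubulins, 2 of 14 fell and 1 rose. *Tuba4a*, an α-tubulin, was at 144 ± 50.7 FPKM in CONTROL-VEH and 59.0 ± 8.17 in OGD-VEH (log2 fold change -1.23, SE 0.25, padj = 0.0362), and *Tubb2a*, an abundant neuronal β-tubulin, at 1051 ± 104 and 714 ± 147 FPKM (-0.57, padj = 0.0449). *Tubb6*, a β-tubulin that is low in neurons, rose from 1.96 ± 1.16 to 10.8 ± 4.41 FPKM (2.62, SE 0.67, padj = 0.0485).

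Of the other microtubule-associated genes 2 of 27 fell. *Tppp*, a tubulin polymerisation-promoting protein known best from oligodendrocytes, went from 81.1 ± 15.3 to 18.0 ± 7.84 FPKM (-2.25, SE 0.30, padj = 0.0266). *Dclk1*, a kinase related to doublecortin, went from 528 ± 62.1 to 326 ± 30.7 FPKM (-0.69, SE 0.11, padj = 0.0294). Of the stathmins and collapsin response mediators 2 of 8 fell, *Dpysl3* (-0.75, padj = 0.0483) and *Dpysl5* (-0.93, padj = 0.0499). None of 15 severing and tubulin-modifying genes passed. By limma 5 had an unadjusted p under 0.05 and 4 of them were lower, against 35.0% of all genes and 14.9% downward. The smallest p was that of *Ttll7*, a tubulin polyglutamylase (-0.46, padj = 0.0554).

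Of 17 kinases and proteases that act on the cytoskeleton 3 fell. These were *Cdk5r1*, the neuronal activator of Cdk5 (-0.73, padj = 0.0357), *Mark2*, a tau kinase (-0.69, padj = 0.0447), and *Mapk10*, the neuronal JNK (-0.60, padj = 0.0477). Of 24 motor genes 5 fell, the kinesins *Kif3a* (-0.73, padj = 0.0336), *Kif1a* (-0.71, padj = 0.0336) and *Kif1b*, the kinesin light chain *Klc1* and the dynein light chain *Dynll2* (-0.44, padj = 0.0336). Of 22 genes of actin, spectrin and the growth cone 3 fell and 2 rose, with *Ank2* (-0.37, padj = 0.0383), *Dbn1* (drebrin, -0.52, padj = 0.0447) and *Pfn1* (profilin, 0.54, padj = 0.0427) having the smallest p. *Basp1*, a growth-cone protein, was the third that fell, and *Cfl2*, a cofilin, the second that rose.

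Cell type markers moved with these differences. The 12 neuron markers had a median log2 fold change of -0.95 with vehicle and -0.47 with TIA. With vehicle 1 of 12 was called (*Syt1*, -1.52, SE 0.37, padj = 0.0447), and with TIA none. At an unadjusted p under 0.05 by limma, 9 were lower with vehicle, against 14.9% of all genes, and 3 with TIA, against 7.92%. Their summed level was 2296 to 2506 FPKM in CONTROL-VEH, 2213 to 2501 in CONTROL-TIA, 865 to 2091 in OGD-VEH and 1200.2 to 2275 in OGD-TIA. None of the 12 was at 0 in all cultures.

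Among the markers of glia and precursors, those of the oligodendrocyte lineage most often passed the test with vehicle. Of 8 astrocyte markers none passed (3 were higher at an unadjusted p under 0.05 by limma, against 35.0% of all genes in either direction). Their median was 0.79, with *Sox9*, a glial transcription factor, at 1.28 (padj = 0.0546). Their summed level was 495 to 804 FPKM in CONTROL-VEH and 664 to 1736 in OGD-VEH, 439 to 560.0 in CONTROL-TIA and 505 to 1268 in OGD-TIA. Of 7 oligodendrocyte-lineage markers tested, 4 rose and 1 fell. These were *Olig1* (1.25, padj = 0.0339), *Olig2* (1.41, padj = 0.0347) and *Cspg4* (1.06, padj = 0.0420) and *Sox10*, which are expressed from the precursor stage on and rose, and *Mbp*, a myelin protein, which fell. The summed level of the list was 177 to 213 FPKM in CONTROL-VEH and 244 to 676 in OGD-VEH. Of 7 precursor markers 1 rose (*Nes*, also in the filament list), with sums of 107 to 164 and 149 to 429 FPKM.

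Microglia and vessel markers stayed low, with 1 of 8 tested in each list. *Aif1* had a mean of 0.838 FPKM in CONTROL-VEH and 0.604 in OGD-VEH, and *Pdgfrb* 1.87 and 1.97. The part of these shifts in the differences of the 10 genes was not tested.

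Set against the mean log2 level of the 12 neuron markers in the same culture, the 10 genes parted. The markers themselves were lower after OGD, at a mean log2 level of 6.72 in CONTROL-VEH and 5.81 in OGD-VEH. They were at 6.70 in CONTROL-TIA and 6.24 in OGD-TIA. The median gene changed by 0.10 with vehicle and 0.04 with TIA, so a gene with no change of its own is higher relative to the markers. How many of all genes lie above the controls on this scale was not counted. *Mapt*, *Tubb3*, *Stmn2*, *Nefl* and *Nefh* differed from the markers by -0.13 to 0.28 on the log2 scale between OGD-VEH and CONTROL-VEH, with overlap. *Ina* was higher relative to the markers by 0.45 with vehicle and by 0.38 with TIA, with all OGD cultures above all controls in both arms. *Map2* (0.72), *Dcx* (0.62) and *Nefm* (0.44) were also higher relative to the markers with vehicle, but with overlap, and *Nefm* was at -0.07 with TIA. The relative difference of *Map1b* was -0.95 with all OGD-VEH cultures below all controls, and -0.13 with overlap when isoforms were weighted by length. *Ina* stayed above the controls in both arms on that scale, and *Map2* was above all controls with vehicle (0.68) and overlapped with TIA.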

How the data were processed

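RNA-seq libraries of 16 cultures (TruSeq stranded mRNA, 50-base single-end reads) were quantified by the authors with STAR and eXpress on GRCm38 with Ensembl 92 annotation. The deposited values are FPKM per isoform after TMM scaling. FastQC and DESeq2 are also named by the study, without versions. Here, 74 of 135276 lines that name no isoform were left out, and isoform FPKM was summed per gene symbol. Groups were taken from the labels, and the study describes the 4 cultures of a group as biological replicates. Genes whose mean over the cultures compared reached 0.5 FPKM were tested with limma 3.58.1 (R 4.3.3, moderated test with a mean-variance trend) on log2(FPKM + 0.1), with Benjamini-Hochberg adjustment over all genes tested. Fold changes on this scale understate those of low genes. A gene was called at padj of at most 0.05 together with a log2 fold change of at least 1 in size, the rule of the study. Single values were compared with two-sided exact permutation tests.

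Library size was estimated from the scaled FPKM value of 1 read over 15151 genes with a single isoform. Isoform lengths and classes came from GENCODE M21, in which 99.89% of the isoforms were found. The limma step was tested on simulated data. The other analyses used Python 3.11.15, numpy 2.4.6, pandas 2.3.3 and matplotlib 3.10.9. The alternatives were pseudocounts of 1 and 0.01, no filter or a mean of at least 2 FPKM, median-ratio scaling, array weights, robust empirical Bayes, 1 fit of all 16 cultures, isoforms weighted by length, protein-coding isoforms alone, and leaving out each culture. Leaving out cultures 12 and 16 together, and a block by the place of a culture in the numbering of its group, were chosen after seeing the data. The 10 genes, the 8 cytoskeleton lists and the cell type marker lists were chosen with earlier results of these data known. Of each list, the text gives values for at most the 3 genes with the smallest p among those at padj of at most 0.05 in OGD-VEH, or for the 1 with the smallest p where none passed. The other genes of a short count were named after their values were seen. A result for 1 gene whose pattern was among the most like that of the 10 genes is not reported here.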

Additional observations from a re-analysis of the deposited data

Results flagged for a closer look

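Of 40 sets of 4 cultures (10 genes in 4 groups), 5 held a culture that stood far from the other 3 by Dixon's test, where chance gives about 1 in 20 sets, or 2 of 40. The sets are not independent, because the same cultures recur for all 10 genes and many of these genes ran together. An excess over 2 was therefore not tested. In OGD-TIA culture 16, *Mapt* was 506 FPKM against 917 in the nearest culture of its group, and *Stmn2* was 390.3 FPKM against 688. In CONTROL-TIA culture 5, *Nefl* was the highest of its group (53.5 FPKM, next 42.8) and *Dcx* the lowest (154 FPKM, next 176). In CONTROL-VEH culture 2, *Mapt* was 1237 FPKM against 1055 in the next culture. OGD-VEH culture 12, the lowest of its group for 9 of the 10 genes, met this criterion for none of them.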

How the results depend on the processing

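No pairing is given by the labels, whose numbers run from 1 to 16. With the place of a culture in its group as a block, chosen after seeing the data, OGD-VEH against CONTROL-VEH gave 0 calls by limma. This held for all genes, the 10 genes and the lists (*Map1b* padj = 0.0654). In that limma fit 8 of the 10 genes were lower at an unadjusted p under 0.05. The share of all genes at that p in this fit was not counted. With the same block, 814 genes and 1 of the 10 were called over both arms. Of 24 pairs of cultures at the same place, 4 had deviations correlated above 0.1, against 2 of 72 other pairs. Of these 4 pairs, 3 were at the last place. They were cultures 12 and 16 (Pearson's r = 0.487), 4 and 12 (0.183) and 4 and 16 (0.179). Of 1109 alternative values of the 10 genes (all 10 in 5 comparisons, *Map1b* and *Tubb3* for the interaction), 1016 kept their direction and side of the threshold, 34 lost significance, 27 gained it and 32 changed sign. These were *Ina* and *Tubb3* in OGD-TIA against CONTROL-TIA, at 0.0515 and 0.0471 with array weights and 0.0877 and 0.0875 without OGD-TIA culture 16, alone or with OGD-VEH culture 12, a pair left out as an alternative chosen after seeing the data. Leaving out 1 culture gave -0.152 to 0.0877 for *Ina* and -0.29 to 0.0875 for *Tubb3*. In CONTROL-TIA against CONTROL-VEH they were *Nefl* (-0.0242), *Nefm* (-0.00256), *Ina* (-0.0159) and *Dcx* (0.0236) with array weights and *Map1b* with length weights (0.0515) and protein-coding isoforms (0.0563). Leaving out 1 culture there gave -0.0600 to 0.213 for *Nefl*, -0.0484 to 0.157 for *Nefm*, -0.0263 to 0.0356 for *Ina*, -0.0801 to 0.0217 for *Mapt*, -0.122 to 0.0677 for *Map1b* and -0.0739 to 0.0391 for *Dcx*. In OGD-TIA against OGD-VEH they were *Nefm*, at -0.00745 with array weights and -0.0409 without cultures 12 and 16, and on leaving out 1 culture *Nefl* (-0.0988 to 0.444) and *Nefm* (-0.225 to 0.213).

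In OGD-VEH against CONTROL-VEH, the 1 of the 10 genes called became 0 with no filter, and 2 with a mean of at least 2 FPKM, with all 16 cultures in 1 fit and with protein-coding isoforms. It was 0 to 4 on leaving out 1 culture. By padj alone the 1 gene (8.44% of all genes) became 0 with no filter (0.144%), 2 at 2 FPKM (12.3%), 7 with array weights (38.8%), 5 with all 16 cultures (28.3%), 4 with length weights (25.2%) and 3 with protein-coding isoforms (16.6%), and 0 to 5 on leaving out 1 culture (0.00610% to 30.5%). All genes called (668) became 36 with no filter, 1929 with array weights, 1412 with all 16 cultures, 1072 with length weights and 71 without cultures 12 and 16. They were 1 to 2186 on leaving out 1 culture, the highest without culture 9 and at most 18 without any control. The 17 genes of the cytoskeleton lists that fell became 0 with no filter, 72 with array weights, 57 with all 16 cultures, 51 with length weights, 33 with protein-coding isoforms and 1 without cultures 12 and 16 (0 to 63 on leaving out 1). The 6 that rose became 0 with no filter, 3 with median-ratio scaling, 16, 10, 13 and 12 with array weights, all 16 cultures, length weights and protein-coding isoforms, and 0 without cultures 12 and 16 (0 to 14 on leaving out 1).

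In OGD-TIA against CONTROL-TIA, the 0 genes called became 7 with no filter, 80 with array weights, 1 with all 16 cultures, 61 with length weights, 1 with protein-coding isoforms and 16 without culture 16 (0 to 16 on leaving out 1). The 5 of the 10 genes with no overlap became 3 with median-ratio scaling, where the share of all genes was not counted. In CONTROL-TIA against CONTROL-VEH 4 genes were called with no filter. In OGD-TIA against OGD-VEH 4 were called with no filter and 408 with array weights, 1 of the 10 genes among them, and 0 to 2 on leaving out 1 culture. Over both arms, the 1 gene called of the 10 became 0 with length weights and 0 with protein-coding isoforms, the 7 at padj became 4 with no filter (12.9% of all genes, and 4 to 7 on leaving out 1, with 4 without CONTROL-VEH culture 2 or OGD-TIA culture 16), all genes called (780) became 394 at a pseudocount of 1, 526 to 1058 on leaving out 1 culture and 381 without cultures 12 and 16, and the 13 list genes that rose became 7 without them. The interaction gave 3 genes with no filter, 101 with array weights, 1 with protein-coding isoforms and 0 to 1 on leaving out 1 culture. The cause of these shifts was not tested. Groups of 4 cultures, 50-base reads and the 33 reads behind the lowest *Nefh* value limit the precision for *Nefh* and for single isoforms.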
